A study of Xenopus laevis with 39 samples.

Results

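The olfactory bulb of Xenopus laevis larvae was compared 2 days after transection of the olfactory nerve with the bulb of control larvae, by RNA sequencing of total RNA with 3 libraries a group. The 6 libraries were chosen by their column names, as the bulb taken 2 days after the cut and the control larval bulb, from 39 libraries of 13 groups of noses, nasal chambers and bulbs. Noses labelled stage 66, larval noses exposed to amino acids for 5 h (labelled 200 or 1000) and larval nasal chambers enter only fits of all 39 libraries. For context the text also uses 3 bulb libraries at 1 week and 3 at 7 weeks after the cut, and noses at 2 days after the cut and of controls (3 libraries each). Noses at 1 week and 7 weeks after the cut enter the joint fit of bulb and nose. The bulb groups and the noses of controls and after the cut are labelled as larvae and as whole bulb or whole nose. The labels used here give no strain, genotype, developmental stage, number of animals per library or date for them, and they do not say whether 1 or both nerves were cut. They also do not tie libraries to animals, so a p-value measures the spread between these libraries, which may be technical. Because age and clutch of the 2 groups are not given, a difference due to the cut cannot be told apart from a difference of age or parentage.

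The olfactory nerve is made of the axons of receptor neurons whose cell bodies lie in the nose, and it ends in the glomeruli of the bulb on the dendrites of mitral cells, the bulb's glutamatergic output neurons. Cutting it leaves the axon stumps in the bulb without a cell body, so they degenerate and are removed by phagocytes, among them the microglia that live in the brain. Ensheathing glia wrap the axons along their path, GABA-releasing granule and periglomerular neurons make up most of the bulb's interneurons, and radial glia along the ventricle produce new neurons in tadpoles. New receptor neurons grow from stem cells of the nasal epithelium and send axons back to the bulb. Each gene of this allotetraploid frog can exist as a pair of homeologs, marked .L and .S after the long and short chromosomes, and both are counted as members of a list.

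Depth was 66224757, 53450316 and 91509598 counted reads in libraries 1, 2 and 3 of 2 day bulbs, against 71084656, 100001638 and 67181911 in those of control bulbs, and 34624 to 35229 of 37223 genes had a read. Levels are in CPM, read counts scaled to the library total, and fold changes are on the log2 scale with their standard error. A gene is called, and said to rise or fall, at an adjusted p under 0.05 in the edgeR quasi-likelihood test. Of 31701 genes tested, 14652 were called (46.2%), of which 6834 rose (21.6% of all tested) and 7818 fell (24.7%). A called change of at least 2-fold was upward in 2754 genes (8.69%) and downward in 1841 (5.81%). The libraries of the groups did not overlap in 20653 genes (65.1%), and the median log2 fold change of all genes was -0.02. A list's count is to be read against these shares, and so is any statement that the groups did not overlap. Over the called genes the control library nearest to the mean of the 2 day bulbs was library 3 in 67.8%, library 1 in 16.5% and library 2 in 15.7%.

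Markers of bulb and forebrain neurons were present in all 6 libraries, a set that does not separate the bulb from other forebrain. How far the dissection reached was not tested. The summed level of 20 forebrain and bulb neuron entries was 1810, 1932 and 1926 CPM in 2 day bulbs, against 1695, 1787 and 1698 CPM in control bulbs. Muscle markers summed to 32.8, 31.6 and 32.1 CPM in 2 day bulbs, against 31.7, 33.2 and 32.2 CPM in controls. Markers of the nasal epithelium (krt15, krt75, col17a1, psca and tp63) were also present. They summed to 35.6, 6.80 and 66.7 CPM in 2 day bulbs, against 1.41, 1.497 and 1.12 CPM in controls, so libraries 1 and 3 of the 2 day bulbs held most of these transcripts. Fibroblast and meninges markers followed the same libraries, at 671, 331 and 1175 CPM in 2 day bulbs, against 738, 737 and 620 CPM in controls. List counts are therefore also given with library 2 as the only 2 day bulb, an alternative chosen after the data were seen, in which 7153 genes were called. The range over all fits, given beside a list's counts, covers 14 fits of the same contrast that differ in tool, scaling, filter or libraries. In each of the 36 lists no fit gave more calls than that of only the 6 libraries compared, and the fewest came with library 2 alone or with all 39 libraries. Among the genes named with values below, the calls of trem2.S, p2ry12.S, ccl19.L, tap1.L, chac1.L, col1a2.S, flt1.L, hbg2.L, gap43.S, gng13.S, mbp.L, mpz.L, sf1.S, suv39h1.S, ltk.S, c7.S, cfd.L, eif2ak2.L and lgals9.L ended with library 2 alone, and the log2 fold change of lum.L changed sign. Members that moved against most of their list are named below where they are few, and were chosen after their values were seen. The 12 most raised and 12 most lowered genes below were ranked among called genes with a symbol. Only genes with a higher group mean of at least 5 CPM and no overlap between groups were ranked.

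**Figure D1:**
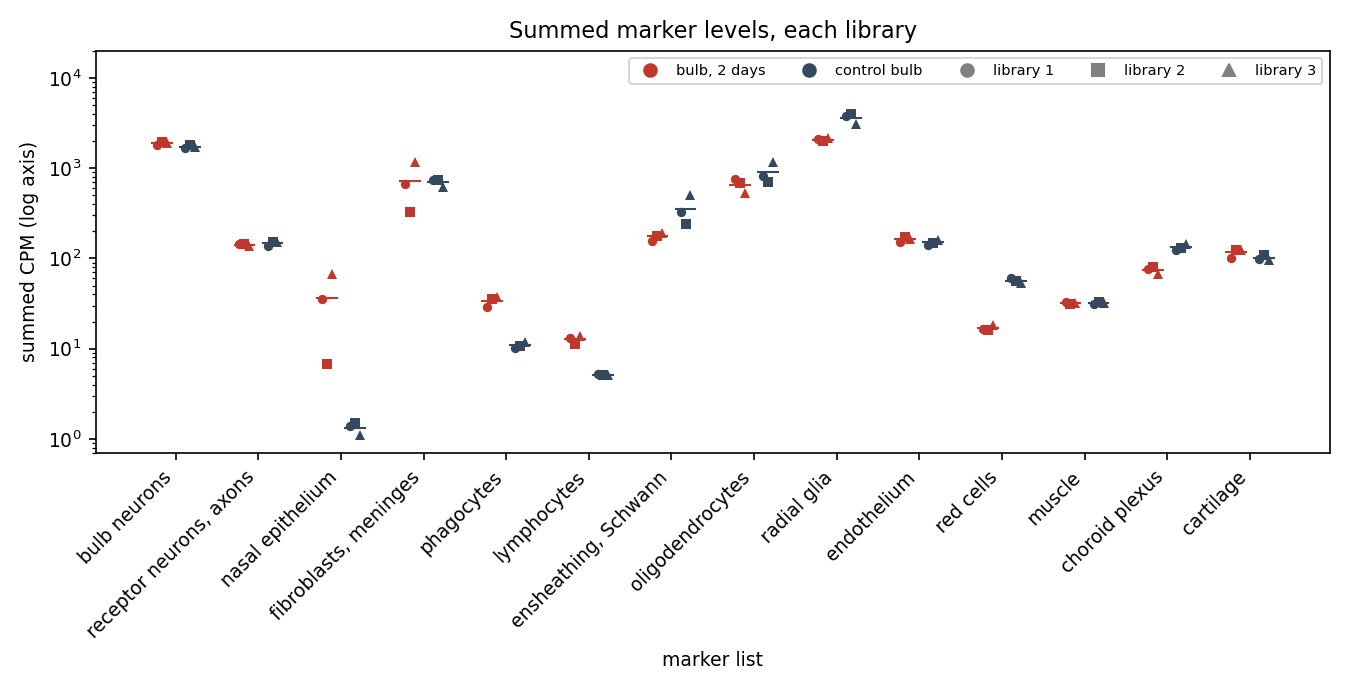
Summed CPM (log axis) of 14 marker lists in each library, with 2 day bulbs in red left of control bulbs in dark blue, marker shapes for the library number and a line at the group mean. Phagocyte sums of 29.0 to 37.6 CPM in 2 day bulbs lie above 10.2 to 11.9 CPM in controls, and nasal epithelium sums spread from 6.80 to 66.7 CPM among the 2 day bulbs.

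**Figure D2:**
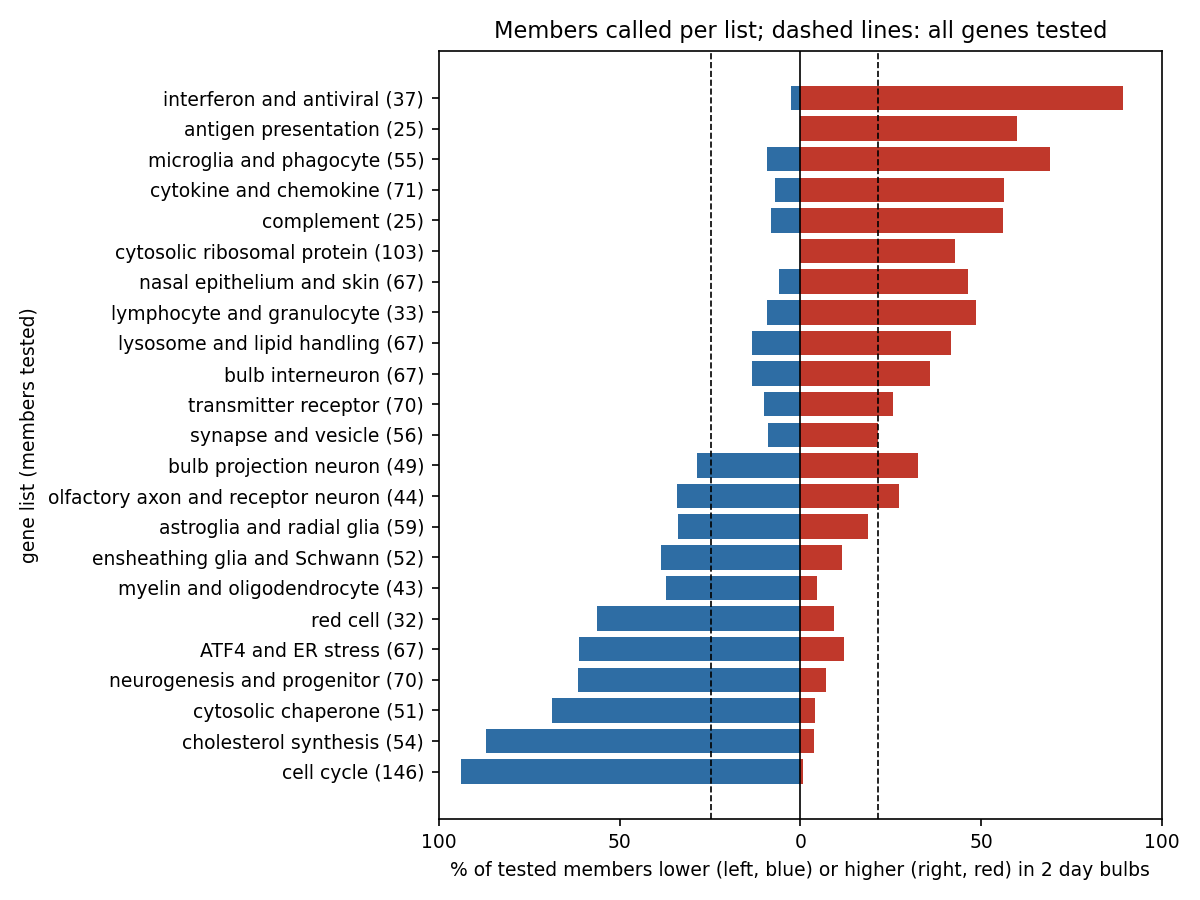
Share (%) of the tested members of 23 gene lists that rose (red, right) or fell (blue, left) in 2 day bulbs against control bulbs, with the number of members tested in parentheses and dashed lines at the 21.6% and 24.7% of all genes that rose and fell. Interferon and antiviral genes (33 of 37) and cell cycle genes (137 of 146) have the longest bars.

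Most phagocyte genes rose. In the list of microglia and phagocyte genes 38 of 55 tested members rose and 5 fell, with a median log2 fold change of 1.17 (25 to 40 rose and 4 to 5 fell over all fits). With library 2 as the only 2 day bulb 25 rose and 4 fell. The receptor csf1r.S, on whose ligands microglia and macrophages depend, was at 6.83, 7.95 and 8.92 CPM in 2 day bulbs, against 3.39, 3.96 and 4.40 CPM in control bulbs (log2 fold change 1.02 ± 0.15, adjusted p = 0.000178). Its levels in 2 day bulbs all lay above those in controls, as did those of all 7 phagocyte marker entries, each of which rose by at least 2-fold. The lipid-sensing receptor trem2.S was at 5.39, 5.83 and 6.33 CPM in 2 day bulbs, against 1.73, 1.80 and 1.70 CPM in control bulbs (log2 fold change 1.75 ± 0.43, adjusted p = 0.00577). Its signalling adaptor tyrobp.S was at 3.02, 3.02 and 3.77 CPM in 2 day bulbs, against 0.865, 0.680 and 0.831 CPM in control bulbs (log2 fold change 2.06 ± 0.31, adjusted p = 0.000206). The pan-leukocyte phosphatase ptprc.S, the homeolog with the larger change, was at 4.96, 9.01 and 7.84 CPM in 2 day bulbs, against 0.879, 1.08 and 1.12 CPM in control bulbs (log2 fold change 2.82 ± 0.28, adjusted p = 1.07e-05), while ptprc.L changed by 1.24 ± 0.26. Every 2 day library lay above every control in these genes. The myeloid transcription factor spi1 rose in both homeologs, by 1.57 ± 0.22 for spi1.L and 1.71 ± 0.21 for spi1.S. The glycoprotein gpnmb.L, made by macrophages that have taken up lipid-rich debris, was at 11.9, 12.9 and 17.9 CPM in 2 day bulbs, against 2.41, 2.05 and 3.16 CPM in control bulbs (log2 fold change 2.50 ± 0.23, adjusted p = 7.34e-06).

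The purinergic receptor p2ry12, through which resident microglia sense released nucleotides, rose in both homeologs (2.54 ± 0.36 for p2ry12.L and 1.11 ± 0.31 for p2ry12.S). Not every microglial gene moved that way. The 5 members that fell were both homeologs of tmem119, a membrane protein of resident microglia in mammals, with gas6.S, a ligand of receptors for dying cells, the phosphatase inpp5d.L and the lectin lgals9.L. For tmem119.L the levels were 1.61, 1.70 and 1.14 CPM in 2 day bulbs, against 3.26, 3.44 and 4.06 CPM in control bulbs (log2 fold change -1.28 ± 0.19, adjusted p = 0.000154). For lgals9.L they were 6.55, 4.88 and 2.93 CPM in 2 day bulbs, against 14.6, 11.9 and 21.7 CPM in control bulbs (log2 fold change -1.75 ± 0.42, adjusted p = 0.00526). Both homeologs of tmem119 and lgals9.L were lower in every 2 day library than in any control. In a bulk sample fewer cells of a type and less RNA per cell cannot be told apart, and the same holds for increases.

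The lipid carrier apoe, a main product of activated microglia and of astrocytes, rose in 1 homeolog and was not called in the other. For apoe.L the levels were 54.7, 71.7 and 76.9 CPM in 2 day bulbs, against 4.10, 4.32 and 4.96 CPM in control bulbs (log2 fold change 3.93 ± 0.35, adjusted p = 8.57e-06). For apoe.S they were 51.4, 52.4 and 63.0 CPM in 2 day bulbs, against 38.5, 26.4 and 39.8 CPM in control bulbs (log2 fold change 0.68 ± 0.28, adjusted p = 0.0671), which was not called. The groups did not overlap in either homeolog, and the gap was wide for apoe.L and narrow for apoe.S. The cholesterol exporter abca1 rose in both homeologs, and abca1.S was at 37.7, 40.5 and 40.5 CPM in 2 day bulbs, against 10.7, 11.2 and 16.7 CPM in control bulbs (log2 fold change 1.62 ± 0.16, adjusted p = 1.21e-05). Of 67 lysosome and lipid handling genes tested, 28 rose and 9 fell, with a median of 0.23 (16 to 34 rose and 5 to 9 fell over all fits, 16 and 5 with library 2 alone). Of the rises 10 reached 2-fold. Those included the lysosomal sulfatase gns.S at 38.8, 51.8 and 33.4 CPM in 2 day bulbs, against 13.4, 12.8 and 27.2 CPM in control bulbs (log2 fold change 1.22 ± 0.28, adjusted p = 0.00384), where control library 3 lay nearest the 2 day bulbs.

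Complement genes rose as well, 14 of 25 tested against 2 that fell (median 0.83, 10 to 14 rose and 0 to 3 fell over all fits, 10 and 0 with library 2 alone), and at most 1 fell when any 1 library was left out. The 3 chains of C1q, the recognition unit of the classical pathway that tags synapses and debris for phagocytes, moved by similar amounts. For c1qa.L the levels were 24.6, 28.1 and 31.7 CPM in 2 day bulbs, against 8.97, 8.18 and 9.63 CPM in control bulbs (log2 fold change 1.66 ± 0.12, adjusted p = 1.08e-06). The other chains c1qb.L and c1qc.L rose by 1.94 ± 0.24 and 1.57 ± 0.20. The next component of the pathway, c4a.L, had the largest change of the list and was at 19.6, 25.6 and 21.8 CPM in 2 day bulbs, against 1.05, 0.995 and 2.01 CPM in control bulbs (log2 fold change 4.07 ± 0.38, adjusted p = 9.75e-06). Of the central component c3, c3.L was at 12.3, 22.9 and 22.6 CPM in 2 day bulbs, against 5.92, 5.76 and 10.8 CPM in control bulbs (log2 fold change 1.37 ± 0.38, adjusted p = 0.0116), with 2 day library 1 closest to the controls. The other homeolog c3.S stayed under 0.5 CPM in all 6 libraries and was not called. The alternative pathway protease cfb.L was at 33.7, 48.9 and 52.8 CPM in 2 day bulbs, against 9.16, 7.13 and 19.9 CPM in control bulbs (log2 fold change 1.91 ± 0.35, adjusted p = 0.00099). The members that fell were c7.S, of the membrane attack complex (-0.61 ± 0.18), and the protease cfd.L (-0.62 ± 0.21), calls that ended when any of 3 libraries was left out for c7.S and any of 4 for cfd.L.

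**Figure D3:**
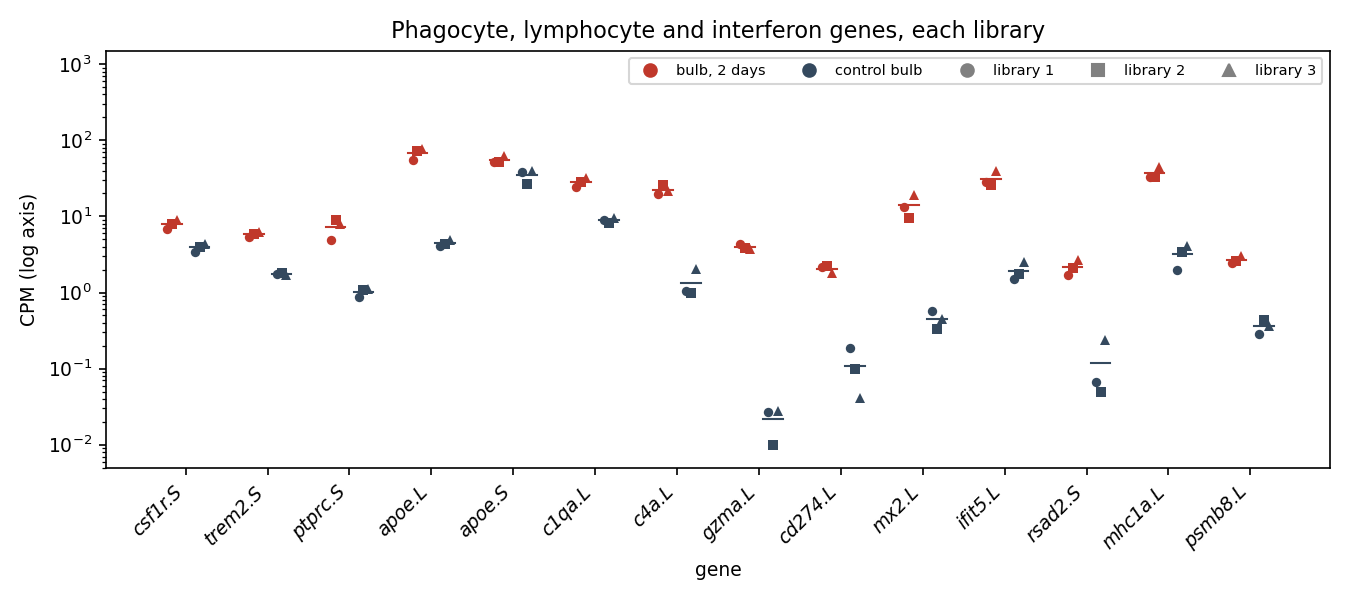
CPM (log axis) of 14 immune genes in each library, with 2 day bulbs in red left of control bulbs in dark blue, marker shapes for the library number and a line at the group mean. The groups do not overlap in any of these genes, as in 65.1% of all genes tested. The gap is smallest for apoe.S (51.4 to 63.0 CPM in 2 day bulbs and 26.4 to 39.8 CPM in controls), which was not called. Members of the immune lists that fell, such as tmem119.L and lgals9.L, are not shown.

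Interferon-stimulated genes rose almost throughout their list. Of 37 tested members 33 rose, 28 of them at least 2-fold, and 1 fell, with a median log2 fold change of 1.55 (26 to 33 rose and 0 to 3 fell over all fits). With library 2 as the only 2 day bulb 26 rose and none fell, with a median of 1.48. The GTPase mx2.L, which blocks virus replication, was at 13.3, 9.52 and 19.1 CPM in 2 day bulbs, against 0.568, 0.335 and 0.443 CPM in control bulbs (log2 fold change 4.98 ± 0.45, adjusted p = 6.53e-06). The RNA-binding ifit5.L was at 28.2, 26.1 and 39.2 CPM in 2 day bulbs, against 1.51, 1.73 and 2.53 CPM in control bulbs (log2 fold change 4.03 ± 0.43, adjusted p = 2.56e-05). The radical enzyme rsad2.S (viperin), which makes a chain-terminating nucleotide, was at 1.69, 2.12 and 2.71 CPM in 2 day bulbs, against 0.0676, 0.0493 and 0.235 CPM in control bulbs (log2 fold change 4.27 ± 0.40, adjusted p = 7.54e-06). In mx2.L and ifit5.L library 3 of the 2 day bulbs was highest and library 2 lowest, the order also seen in the epithelial marker sum. Library 2 was above every control for these genes, which the ranking required of mx2.L. With library 2 as the only 2 day bulb the log2 fold change of mx2.L was 4.42. The part of the epithelial transcripts in these rises was not tested. The ubiquitin ligase herc6 rose in both homeologs, with herc6.S at 4.98, 4.59 and 8.16 CPM in 2 day bulbs, against 0.311, 0.187 and 0.401 CPM in control bulbs (log2 fold change 4.33 ± 0.42, adjusted p = 9.96e-06). The log2 fold change of herc6.L was 3.58 ± 0.23. The signal transducer stat2, part of the complex that drives these genes, rose by 3.24 ± 0.42 in stat2.S and by 1.01 ± 0.16 in stat2.L, which was at 65.9, 57.3 and 68.3 CPM in 2 day bulbs, against 29.8, 29.5 and 36.5 CPM in control bulbs. The nucleotide kinase cmpk2 rose by 2.80 ± 0.42 in cmpk2.S and 1.23 ± 0.16 in cmpk2.L. The single member that fell was the kinase eif2ak2.L (PKR), at 5.06, 4.84 and 3.71 CPM in 2 day bulbs, against 6.35, 6.52 and 6.12 CPM in control bulbs (log2 fold change -0.48 ± 0.14, adjusted p = 0.0122), and its call ended without 2 day library 3 or with all 39 libraries.

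Antigen presentation genes rose with them, 15 of 25 tested and none downward (median 0.70, 10 to 17 rose and 0 fell over all fits, 10 and 0 with library 2 alone). The class I heavy chain mhc1a.L was at 33.3, 33.2 and 44.6 CPM in 2 day bulbs, against 1.99, 3.43 and 4.10 CPM in control bulbs (log2 fold change 3.55 ± 0.31, adjusted p = 6.51e-06). Parts of the machinery that loads it rose too. The immunoproteasome subunit psmb8.L was at 2.45, 2.60 and 3.00 CPM in 2 day bulbs, against 0.284, 0.433 and 0.360 CPM in control bulbs (log2 fold change 2.89 ± 0.24, adjusted p = 3.16e-06). Of the peptide transporter, subunit tap1.L was at 5.88, 3.78 and 8.53 CPM in 2 day bulbs, against 0.135, 0.108 and 2.06 CPM in control bulbs (log2 fold change 3.05 ± 0.78, adjusted p = 0.00851). Subunit tap2.L was at 2.71, 2.19 and 4.70 CPM in 2 day bulbs, against 0.0270, 0.00985 and 0.457 CPM in control bulbs (log2 fold change 4.39 ± 0.71, adjusted p = 0.000402). Control library 3 stood apart in both transporter genes, and without it their log2 fold changes were 5.65 for tap1.L and 7.43 for tap2.L. The class II chaperone cd74 rose in both homeologs, and cd74.S was at 48.1, 44.7 and 50.1 CPM in 2 day bulbs, against 9.21, 9.10 and 9.81 CPM in control bulbs (log2 fold change 2.35 ± 0.20, adjusted p = 3.94e-06). The class I, psmb8 and tap genes are known to lie together in the frog MHC.

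Cytokine and chemokine genes rose in 40 of 71 tested members and fell in 5 (median 0.68, 23 to 41 rose and 2 to 6 fell over all fits). The count that rose was 23 with library 2 as the only 2 day bulb. The chemokine ccl5, which attracts T cells and monocytes, moved alike in its homeologs, with ccl5.L at 4.22, 3.83 and 4.28 CPM in 2 day bulbs, against 1.01, 0.768 and 1.14 CPM in control bulbs (log2 fold change 2.09 ± 0.17, adjusted p = 2.39e-06). The log2 fold change of ccl5.S was 2.08 ± 0.19. The inflammatory cytokine tnf was low but rose in both homeologs, and tnf.L was at 0.839, 1.31 and 1.01 CPM in 2 day bulbs, against 0.189, 0.236 and 0.208 CPM in control bulbs (log2 fold change 2.30 ± 0.34, adjusted p = 0.000184). The lymphoid chemokine ccl19.L was at 1.93, 1.02 and 1.64 CPM in 2 day bulbs, against 0.216, 0.197 and 0.360 CPM in control bulbs (log2 fold change 2.59 ± 0.52, adjusted p = 0.00158). The cytokine receptor chain il10rb.S rose by 2.15 ± 0.24. Members that fell were both homeologs of the chemokine receptor cxcr4, a guidance receptor of migrating neurons, with hmox1.L, nfkb2.L and tnfrsf1a.S, by at most 0.77 on the log2 scale.

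Lymphocyte and granulocyte genes rose in 16 of 33 tested members and fell in 3 (median 0.96, 10 to 18 rose and 2 to 3 fell over all fits, 10 and 2 with library 2 alone). Lymphocyte markers summed to 13.1, 11.4 and 13.9 CPM in 2 day bulbs, against 5.26, 5.11 and 5.07 CPM in controls. Of the 11 entries in that sum 6 rose and 5 were not called. The cytotoxic protease gzma.L had the largest rise of the immune lists, at 4.35, 3.85 and 3.75 CPM in 2 day bulbs, against 0.0270, 0.00985 and 0.0277 CPM in control bulbs (log2 fold change 7.52 ± 0.33, adjusted p = 1.12e-07), while gzma.S stayed under 0.25 CPM in all 6 libraries. The T cell coreceptor cd8a.L was at 3.59, 3.16 and 3.76 CPM in 2 day bulbs, against 0.797, 0.729 and 0.817 CPM in control bulbs (log2 fold change 2.17 ± 0.21, adjusted p = 7.53e-06). The T cell receptor subunit cd3e.S was at 1.94, 1.75 and 2.63 CPM in 2 day bulbs, against 0.284, 0.552 and 0.346 CPM in control bulbs (log2 fold change 2.40 ± 0.42, adjusted p = 0.000631). These T cell genes were higher in every 2 day library than in any control. The T cell kinase zap70.L was at 2.31, 2.53 and 2.43 CPM in 2 day bulbs, against 0.689, 0.670 and 0.900 CPM in control bulbs (log2 fold change 1.69 ± 0.16, adjusted p = 8.67e-06). The shared cytokine receptor chain il2rg.L rose by 2.49 ± 0.17. The T cell inhibitory ligand cd274.L (PD-L1) was at 2.14, 2.24 and 1.79 CPM in 2 day bulbs, against 0.189, 0.0985 and 0.0415 CPM in control bulbs (log2 fold change 4.22 ± 0.32, adjusted p = 1.83e-06), and cd274.S stayed under 0.2 CPM. The receptor kinase ltk.S, a member of the list singled out after its values were seen, was at 5925, 1722 and 967 CPM in 2 day bulbs, against 778, 798 and 1014 CPM in control bulbs (log2 fold change 1.74 ± 0.55, adjusted p = 0.0222). Its level was far higher in 2 day library 1 than in the other libraries, and the groups overlapped. Without that library its log2 fold change was 0.64, and the call ended there, without control library 1 or 2, with all 39 libraries and with only the 6 compared. The B cell receptor subunit cd79a showed no call in either homeolog, and the members that fell were pax5.L, pax5.S and cd4.S, of which pax5 is also a midbrain and hindbrain factor. Another granzyme, gzmh.S, was at 1.23, 0.548 and 2.26 CPM in 2 day bulbs, against 1.08, 1.26 and 1.81 CPM in control bulbs and was not called (log2 fold change -0.01 ± 0.43, adjusted p = 0.988).

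Transcripts of olfactory receptor neurons and their axons did not move together. Of 44 genes tested in that list, 12 rose and 15 fell, and the median was -0.04 (4 to 12 rose and 7 to 16 fell over all fits, 4 and 8 with library 2 alone). Among the 12 marker entries of these neurons 5 rose, 4 of them by at least 2-fold, and 3 fell, with a highest log2 fold change of 2.89. The marker stoml3 rose in both homeologs and gng8.L fell, while gng8.S did not fall. Each call of stoml3.L, stoml3.S and gng8.L ended when any of 5 libraries was left out, 2 day library 3 among them. The G protein gamma subunit gng13.L, which receptor neurons carry, was at 13.1, 8.94 and 7.96 CPM in 2 day bulbs, against 18.1, 21.9 and 21.4 CPM in control bulbs (log2 fold change -1.03 ± 0.17, adjusted p = 0.000463). All 2 day bulbs lay under all controls, and library 1 lay closest to them. Its homeolog gng13.S changed by -0.34 ± 0.12 (adjusted p = 0.0303), a call that ended when any of 4 libraries was left out. The membrane protein umodl1.L, abundant in receptor neurons, went the other way, at 2.15, 2.70 and 2.64 CPM in 2 day bulbs, against 0.973, 1.28 and 1.19 CPM in control bulbs (log2 fold change 1.12 ± 0.16, adjusted p = 0.000116). The calcium-binding protein s100z was not called in either homeolog (-0.56 ± 0.43 and -0.32 ± 0.33). The early neuronal factor ebf2, which is active in immature receptor neurons and also within the brain, fell, with log2 fold changes of -0.95 ± 0.11 in ebf2.L and -0.94 ± 0.14 in ebf2.S. Calretinin, calb2.S, found in receptor neurons and in periglomerular cells, was at 37.1, 43.0 and 40.0 CPM in 2 day bulbs, against 22.3, 20.7 and 18.7 CPM in control bulbs (log2 fold change 0.97 ± 0.11, adjusted p = 2.71e-05). The olfactory cyclic nucleotide channel cnga2.L lay between 0.230 and 0.454 CPM in the 6 libraries and was not called.

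Among axon growth and injury genes 31 of 88 tested fell and 18 rose (median -0.13, 7 to 28 rose and 17 to 37 fell over all fits, 8 and 19 with library 2 alone). Neurofilaments, which fill large axons, fell in both homeologs of nefm and nefh. For nefm.L the levels were 97.8, 73.5 and 62.2 CPM in 2 day bulbs, against 170.3, 152 and 252 CPM in control bulbs (log2 fold change -1.29 ± 0.24, adjusted p = 0.000985), and nefh.L fell, with a log2 fold change of -1.37 ± 0.30. The growth cone protein gap43.L was at 396, 378 and 392 CPM in 2 day bulbs, against 474, 422 and 485 CPM in control bulbs (log2 fold change -0.24 ± 0.12, adjusted p = 0.125) and was not called. Its homeolog gap43.S fell, with a log2 fold change of -0.39 ± 0.11 (adjusted p = 0.0127, not called without 2 day library 2 or control library 1). The injury-induced factor atf3 rose in both homeologs, and atf3.S was at 6.36, 7.83 and 7.79 CPM in 2 day bulbs, against 3.31, 3.35 and 2.40 CPM in control bulbs (log2 fold change 1.28 ± 0.27, adjusted p = 0.00223). The neuropeptide galanin, often raised in injured neurons, rose by 1.07 ± 0.21 in gal.1.L, which was at 8.37, 9.89 and 8.78 CPM in 2 day bulbs, against 3.87, 4.38 and 4.68 CPM in control bulbs. The list member with the largest rise was dlk1.S, a delta-like membrane protein, at 48.5, 26.3 and 29.2 CPM in 2 day bulbs, against 9.44, 8.68 and 7.59 CPM in control bulbs (log2 fold change 2.02 ± 0.34, adjusted p = 0.000554).

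Glial wrapping genes fell in part. Of 52 ensheathing glia and Schwann cell genes tested 20 fell and 6 rose (median -0.29, 3 to 8 rose and 11 to 22 fell over all fits, 3 and 11 with library 2 alone). Without 2 day library 2 the count that fell was 13. Changes of at least 2-fold numbered 7 falls and 2 rises, and the highest log2 fold change of the list was 2.36. Among the 10 marker entries of these glia 5 fell and 1 rose. The peripheral myelin adhesion protein mpz.S was at 6.55, 6.71 and 12.6 CPM in 2 day bulbs, against 106, 53.2 and 185 CPM in control bulbs (log2 fold change -3.72 ± 0.62, adjusted p = 0.000711), and the controls themselves spread more than 3-fold. Its homeolog mpz.L changed by -1.02 ± 0.28, and by -0.60 without control library 3. The Wnt antagonist frzb fell in both homeologs, with frzb.L at 6.07, 4.74 and 3.61 CPM in 2 day bulbs, against 22.8, 21.2 and 26.9 CPM in control bulbs (log2 fold change -2.30 ± 0.29, adjusted p = 6.98e-05), as did the low-affinity neurotrophin receptor ngfr, a marker of ensheathing and immature Schwann cells (-0.69 ± 0.08 in ngfr.L and -0.88 ± 0.12 in ngfr.S). The glial lineage factor sox10 was not called in either homeolog (0.28 ± 0.15 in sox10.L and 0.05 ± 0.15 in sox10.S). Of 43 myelin and oligodendrocyte genes 16 fell and 2 rose (median -0.50, 1 to 4 rose and 7 to 18 fell over all fits, 2 and 7 with library 2 alone). Myelin basic protein mbp.L was at 139, 127 and 108 CPM in 2 day bulbs, against 189, 156 and 264 CPM in control bulbs (log2 fold change -0.70 ± 0.17, adjusted p = 0.00561), and its log2 fold change was -0.46 without control library 3. Control library 3 was the highest of the 6 in mpz.L, mpz.S and mbp.L. Oligodendrocyte factors nkx6-2.L and nkx6-2.S fell, with log2 fold changes of -1.54 ± 0.26 and -1.34 ± 0.22. The myelin regulator myrf.S rose (0.53 ± 0.15), a call that ended without 2 day library 2.

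Several radial glia genes and most progenitor genes fell. Of 8 radial glia marker entries 2 fell and none rose. Brain fatty acid binding protein fabp7.L, a radial glia protein, was at 505, 442 and 454 CPM in 2 day bulbs, against 1975, 2038 and 1362 CPM in control bulbs (log2 fold change -1.94 ± 0.27, adjusted p = 0.000138), and no 2 day bulb reached the lowest control. This entry is also counted in the lists of ensheathing glia and Schwann cell genes and of lysosome and lipid handling genes. The progenitor intermediate filament nestin fell in both homeologs, with nes.L at 12.7, 11.1 and 15.8 CPM in 2 day bulbs, against 41.2, 42.9 and 30.5 CPM in control bulbs (log2 fold change -1.53 ± 0.15, adjusted p = 8.67e-06). Its homeolog nes.S had a log2 fold change of -1.51 ± 0.17. Vimentin fell in vim.L (-0.86 ± 0.15) and was not called in vim.S (-0.08 ± 0.11). The glutamate transporter slc1a3 and the factor sox9, both also radial glial, were not called in any homeolog. Within the list of astroglia and radial glia genes as a whole 20 of 59 fell and 11 rose (median -0.22, 4 to 13 rose and 12 to 25 fell over all fits, 4 and 12 with library 2 alone). The thyroid hormone binding protein crym.S fell most, to 1.79, 1.54 and 1.79 CPM in 2 day bulbs, against 18.7, 20.8 and 13.8 CPM in control bulbs (log2 fold change -3.37 ± 0.43, adjusted p = 8.57e-05). The folate enzyme aldh1l1.L, an astrocyte marker in mammals, rose most, to 64.3, 69.4 and 67.1 CPM in 2 day bulbs, against 9.41, 11.2 and 22.9 CPM in control bulbs (log2 fold change 2.22 ± 0.25, adjusted p = 3.66e-05). Of 70 neurogenesis and progenitor genes 43 fell and 5 rose (median -0.50, 1 to 8 rose and 28 to 49 fell over all fits, 1 and 28 with library 2 alone). The proneural factor neurog1.L was at 4.38, 2.65 and 3.70 CPM in 2 day bulbs, against 16.3, 19.0 and 12.7 CPM in control bulbs (log2 fold change -2.16 ± 0.27, adjusted p = 6.17e-05), and neurog2 fell in both homeologs (-1.19 ± 0.13 in neurog2.L, -1.22 ± 0.14 in neurog2.S). Those that rose were mycn and pax6, each in both homeologs and by at most 0.87 on the log2 scale, and id2.S.

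Cell cycle genes fell almost throughout their list. Of 146 tested 137 fell and 1 rose, 122 fell at least 2-fold, and the median log2 fold change was -2.03 (1 to 2 rose and 131 to 137 fell over all fits). In the fit with library 2 alone from the 2 day bulbs 131 fell, and over the fits that left out 1 library 135 to 137 fell. The proliferation antigen mki67.L was at 20.1, 16.5 and 18.9 CPM in 2 day bulbs, against 70.7, 83.4 and 57.9 CPM in control bulbs (log2 fold change -1.93 ± 0.14, adjusted p = 1.75e-06). Topoisomerase top2a.L was at 29.5, 20.1 and 25.0 CPM in 2 day bulbs, against 187, 189 and 143 CPM in control bulbs (log2 fold change -2.79 ± 0.36, adjusted p = 0.000115). The named members with the largest falls act in DNA replication and its start. The helicase subunit mcm5.L was at 4.44, 4.13 and 4.09 CPM in 2 day bulbs, against 54.0, 62.1 and 36.0 CPM in control bulbs (log2 fold change -3.58 ± 0.20, adjusted p = 4.12e-07), and mcm6.2.S at 3.75, 3.00 and 3.33 CPM in 2 day bulbs, against 49.1, 66.3 and 34.9 CPM in control bulbs (log2 fold change -3.89 ± 0.22, adjusted p = 4.12e-07). Their homeologs mcm5.S and mcm6.2.L fell, with log2 fold changes of -3.08 ± 0.17 and -2.81 ± 0.16. Ribonucleotide reductase rrm2.2.L, which makes deoxynucleotides, the licensing factor cdc6.S and cyclin E2 ccne2.S fell as well. Their log2 fold changes were -3.31 ± 0.23 for rrm2.2.L, -3.52 ± 0.28 for cdc6.S and -3.82 ± 0.48 for ccne2.S. In mki67.L, top2a.L, mcm5.L and mcm6.2.S every 2 day bulb lay under every control, which the ranking required of mcm5.L and mcm6.2.S. Control library 3 was the lowest control in all of them. The member that rose was the gene annotated as mcm6.L, at 1.24, 1.08 and 1.05 CPM in 2 day bulbs, against 0.487, 0.424 and 0.581 CPM in control bulbs (log2 fold change 1.19 ± 0.19, adjusted p = 0.000312).

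Another 5 of the 12 most lowered genes act in DNA replication, chromatin or the cell cycle and are not in the list. The MYC target cdca7, needed to keep DNA methylation in place, fell in both homeologs, with cdca7.L at 2.00, 2.05 and 2.04 CPM in 2 day bulbs, against 38.9, 42.4 and 24.8 CPM in control bulbs (log2 fold change -4.12 ± 0.25, adjusted p = 4.88e-07). Its homeolog cdca7.S had a log2 fold change of -3.53 ± 0.18. The clamp-associated factor kiaa0101.L (PCLAF) was at 1.80, 1.47 and 1.90 CPM in 2 day bulbs, against 26.1, 24.4 and 15.1 CPM in control bulbs (log2 fold change -3.65 ± 0.28, adjusted p = 2.21e-06). The repressor e2f7.L was at 0.699, 0.618 and 0.764 CPM in 2 day bulbs, against 9.45, 10.3 and 5.48 CPM in control bulbs (log2 fold change -3.59 ± 0.27, adjusted p = 1.62e-06). The histone methyltransferase suv39h1.L was at 0.755, 0.565 and 0.950 CPM in 2 day bulbs, against 10.1, 10.5 and 6.16 CPM in control bulbs (log2 fold change -3.53 ± 0.23, adjusted p = 7.52e-07). The groups did not overlap in these genes, as the ranking required. Their homeologs kiaa0101.S, e2f7.S and suv39h1.S fell, with log2 fold changes of -3.14 ± 0.30, -3.00 ± 0.40 and -1.42 ± 0.37.

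Most genes of bulb neurons changed by less than 2-fold. Of 67 interneuron genes 24 rose and 9 fell (median 0.30, 8 to 40 rose and 4 to 12 fell over all fits, 8 and 6 with library 2 alone). Without 2 day library 2 or 3 or control library 1 the count that rose was 14 or 15. The GABA synthesis gene gad1.1.L, at 267, 262 and 249.6 CPM in 2 day bulbs, against 272, 282 and 293 CPM in control bulbs, was not called (-0.12 ± 0.08). Nor was gad2.L, at 408, 413 and 426 CPM in 2 day bulbs, against 348, 374 and 335 CPM in control bulbs (0.24 ± 0.12), and the vesicular GABA transporter slc32a1 was not called either. Parvalbumin pvalb.L, also counted in the list of muscle genes, was at 2.77, 2.46 and 1.58 CPM in 2 day bulbs, against 8.21, 8.82 and 10.9 CPM in control bulbs (log2 fold change -2.04 ± 0.32, adjusted p = 0.000316). Of 49 projection neuron genes 16 rose and 14 fell (median 0.03, 2 to 20 rose and 5 to 15 fell over all fits, 7 and 8 with library 2 alone). Those that rose numbered 10 without 2 day library 2 or 3 or control library 1, and 11 without control library 2 or 3. The T-box factors of mitral and other glutamatergic neurons, tbr1 and eomes, rose in both homeologs. For tbr1.L the levels were 29.9, 38.0 and 36.8 CPM in 2 day bulbs, against 22.9, 24.0 and 21.0 CPM in control bulbs (log2 fold change 0.63 ± 0.14, adjusted p = 0.00316), and for eomes.L they were 66.3, 81.5 and 77.6 CPM in 2 day bulbs, against 50.5, 53.7 and 46.5 CPM in control bulbs (log2 fold change 0.59 ± 0.12, adjusted p = 0.00154). The forebrain factor neurod2.S rose by 0.57 ± 0.10 and the cadherin cdhr1.S, enriched on mitral cells, by 0.90 ± 0.09. The vesicular glutamate transporter slc17a6 fell in both homeologs, with slc17a6.L at 6.47, 4.66 and 4.29 CPM in 2 day bulbs, against 8.52, 9.80 and 8.58 CPM in control bulbs (log2 fold change -0.80 ± 0.15, adjusted p = 0.000794). The groups overlapped in slc17a7.L, at 172, 186 and 194 CPM in 2 day bulbs, against 182, 199 and 189.9 CPM in control bulbs, which was not called (log2 fold change -0.04 ± 0.07, adjusted p = 0.636). These changes under 2-fold in tbr1, eomes, neurod2.S, cdhr1.S and slc17a6.S were not called when all 39 libraries were fitted together. Nor were those of fos.S, gap43.S, gng13.S, ngfr.L, gal.1.L, hbg2.L, krt2l.L and suv39h1.S given in other paragraphs.

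Synapse genes moved little. Of 56 synapse and vesicle genes 12 rose and 5 fell, none by 2-fold (3 to 18 rose and 0 to 9 fell over all fits, 6 and 1 with library 2 alone). Leaving out 1 library gave 7 to 11 that rose and 2 to 6 that fell. The release machinery protein stx1a.L was at 155, 161 and 146 CPM in 2 day bulbs, against 102, 98.2 and 108 CPM in control bulbs (log2 fold change 0.59 ± 0.10, adjusted p = 0.000344). Transmitter receptor subunits rose in 18 of 70 genes and fell in 7 (median 0.05, 2 to 24 rose and 1 to 8 fell over all fits, 7 and 3 with library 2 alone). A count of 2 to 5 fell over the fits that left out 1 library. The extrasynaptic GABA receptor subunit gabrd.L, present in granule cells, was at 5.93, 2.99 and 2.45 CPM in 2 day bulbs, against 10.1, 12.7 and 13.1 CPM in control bulbs (log2 fold change -1.66 ± 0.28, adjusted p = 0.000447), with library 1 closest to the controls. The kainate receptor grik2.S rose by 0.62 ± 0.08. Immediate early and activity genes were mixed, with 19 of 64 that rose and 9 that fell (median 0.01, 8 to 21 rose and 2 to 14 fell over all fits, 8 and 3 with library 2 alone), and 2 to 7 that fell when 1 library was left out. The activity marker fos.S was at 16.9, 8.29 and 12.5 CPM in 2 day bulbs, against 20.8, 33.3 and 24.1 CPM in control bulbs (log2 fold change -1.04 ± 0.33, adjusted p = 0.0227), a call that ended without 2 day library 2 or 3 or control library 2. The groups overlapped in egr1.L, at 74.8, 48.0 and 73.1 CPM in 2 day bulbs, against 66.5, 94.2 and 65.8 CPM in control bulbs, which was not called (log2 fold change -0.20 ± 0.31, adjusted p = 0.622). The members of that list with the largest rises are known as stress genes. The growth arrest gene gadd45b.S was at 1.69, 2.46 and 2.24 CPM in 2 day bulbs, against 0.379, 0.414 and 0.443 CPM in control bulbs (log2 fold change 2.37 ± 0.35, adjusted p = 0.000193). The phosphatase regulator ppp1r15a.L was at 6.05, 6.71 and 6.65 CPM in 2 day bulbs, against 0.879, 0.788 and 2.20 CPM in control bulbs (log2 fold change 2.35 ± 0.31, adjusted p = 7.73e-05). The mRNA decay factor zfp36.L was at 8.85, 9.68 and 9.80 CPM in 2 day bulbs, against 1.89, 2.33 and 3.49 CPM in control bulbs (log2 fold change 1.89 ± 0.19, adjusted p = 1.31e-05). In gadd45b.S, ppp1r15a.L and zfp36.L every 2 day library lay above every control.

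Most genes of the lists for cholesterol synthesis, for ATF4 and endoplasmic reticulum stress, and for cytosolic chaperones fell. Of 54 cholesterol synthesis genes 47 fell and 2 rose (median -0.91, 0 to 3 rose and 41 to 48 fell over all fits). In the fit with library 2 as the only 2 day bulb 41 fell. The sterol isomerase ebp.S was at 11.6, 10.7 and 12.4 CPM in 2 day bulbs, against 49.0, 56.6 and 39.2 CPM in control bulbs (log2 fold change -2.05 ± 0.13, adjusted p = 6.2e-07). The C4 demethylating oxidase msmo1.L was at 27.7, 23.2 and 30.1 CPM in 2 day bulbs, against 87.1, 96.1 and 68.7 CPM in control bulbs (log2 fold change -1.63 ± 0.20, adjusted p = 4.9e-05), and squalene epoxidase sqle.L was at 8.29, 7.53 and 8.97 CPM in 2 day bulbs, against 25.0, 29.1 and 22.2 CPM in control bulbs (log2 fold change -1.61 ± 0.12, adjusted p = 1.44e-06). No 2 day library reached the lowest control in these sterol genes. In the list of ATF4 and endoplasmic reticulum stress genes 41 of 67 fell and 8 rose (median -0.64, 3 to 10 rose and 29 to 42 fell over all fits, 3 and 29 with library 2 alone). The rises numbered 4 without control library 1, and 5 without 2 day library 2 or 3 or control library 2. Serine synthesis enzyme psph.S was at 5.72, 5.64 and 6.57 CPM in 2 day bulbs, against 72.0, 57.3 and 49.2 CPM in control bulbs (log2 fold change -3.31 ± 0.39, adjusted p = 5.36e-05). Asparagine synthetase asns.L was at 15.7, 16.0 and 14.7 CPM in 2 day bulbs, against 75.7, 52.8 and 57.1 CPM in control bulbs (log2 fold change -1.996 ± 0.20, adjusted p = 1.3e-05). Both synthesis enzymes were lower in every 2 day library than in any control. The secreted folding factor manf.L was at 6.16, 6.06 and 6.55 CPM in 2 day bulbs, against 25.7, 25.0 and 20.4 CPM in control bulbs (log2 fold change -1.92 ± 0.12, adjusted p = 4.72e-07). The glutathione-degrading chac1.L was at 5.33, 6.34 and 5.63 CPM in 2 day bulbs, against 79.1, 52.8 and 8.57 CPM in control bulbs (log2 fold change -3.02 ± 0.62, adjusted p = 0.0026), where control library 3 lay close to the 2 day bulbs. Cytosolic chaperones and related folding factors fell in 35 of 51 genes and rose in 2 (median -0.75, 1 to 3 rose and 27 to 38 fell over all fits, 1 and 27 with library 2 alone). The collagen chaperone serpinh1 fell in both homeologs, with serpinh1.S at 3.84, 5.48 and 6.49 CPM in 2 day bulbs, against 45.2, 47.7 and 35.4 CPM in control bulbs (log2 fold change -3.01 ± 0.19, adjusted p = 6.01e-07). The chaperone hsph1, a nucleotide exchange factor of HSP70, fell, with log2 fold changes of -1.56 ± 0.17 in hsph1.L and -1.64 ± 0.17 in hsph1.S. The small heat shock protein hspb1.S went against the list, at 1.10, 1.01 and 0.744 CPM in 2 day bulbs, against 0.0541, 0.0690 and 0.111 CPM in control bulbs (log2 fold change 3.60 ± 0.41, adjusted p = 2.93e-05).

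Energy and translation genes changed by smaller amounts. Of 114 respiratory chain genes 39 fell and 2 rose (median -0.40, 2 to 3 rose and 10 to 89 fell over all fits). The count that fell was 10 with library 2 as the only 2 day bulb. Cytochrome c, the soluble electron carrier, fell in cycs.S, at 21.1, 18.9 and 20.2 CPM in 2 day bulbs, against 68.8, 67.9 and 56.2 CPM in control bulbs (log2 fold change -1.68 ± 0.20, adjusted p = 4.77e-05). Of 103 cytosolic ribosomal protein genes 44 rose and none fell (median 0.54, 12 to 100 rose and 0 fell over all fits, 12 and 0 with library 2 alone). The count was 26 without control library 3, 27 without 2 day library 3 and 28 without 2 day library 2. For rps6.L the levels were 886, 1051 and 1055 CPM in 2 day bulbs, against 579.7, 643 and 587 CPM in control bulbs (log2 fold change 0.73 ± 0.17, adjusted p = 0.00404). The small subunit gene rps21.L rose by 3.20 ± 0.65, with 60.7, 75.2 and 28.1 CPM in 2 day bulbs, against 3.51, 5.01 and 9.41 CPM in control bulbs. Hypoxia and glycolysis genes rose in 13 of 49 and fell in 14 (median -0.11, 8 to 15 rose and 4 to 18 fell over all fits, 8 and 4 with library 2 alone). Within them the prolyl hydroxylase egln3 rose in both homeologs (1.20 ± 0.12 in egln3.L). So did the mitophagy protein bnip3, with bnip3.S at 166, 182 and 180.4 CPM in 2 day bulbs, against 62.0, 63.3 and 94.2 CPM in control bulbs (log2 fold change 1.27 ± 0.14, adjusted p = 1.77e-05), while the lactate transporter slc16a1.L fell, with a log2 fold change of -1.76 ± 0.12. Apoptosis and p53 genes rose in 12 of 62 and fell in 14 (median -0.07, 6 to 16 rose and 7 to 14 fell over all fits, 6 and 7 with library 2 alone), with 7 that rose without control library 2. The p53 target sesn1, a stress sensor, rose in both homeologs, with sesn1.L at 170.1, 206 and 189 CPM in 2 day bulbs, against 60.5, 58.1 and 79.7 CPM in control bulbs (log2 fold change 1.52 ± 0.14, adjusted p = 5.43e-06). The death receptor fas.L rose by 1.21 ± 0.17, and the pore-forming bax.S fell, with a log2 fold change of -0.90 ± 0.18.

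Genes that respond to steroids, thyroid hormone or the circadian clock rose in 26 of 60 and fell in 7 (median 0.33, 13 to 31 rose and 4 to 7 fell over all fits, 14 and 4 with library 2 alone). Only 4 fell without 2 day library 2 or 3 or control library 1 or 2. The factor cebpd, induced by glucocorticoids and cytokines, rose in both homeologs, with cebpd.L at 39.2, 70.2 and 57.7 CPM in 2 day bulbs, against 7.03, 9.93 and 17.3 CPM in control bulbs (log2 fold change 2.29 ± 0.37, adjusted p = 0.000432). In cebpd.S the log2 fold change was 2.25 ± 0.36. The thyroid hormone activating deiodinase dio2 fell in both, with dio2.S at 0.880, 0.724 and 0.909 CPM in 2 day bulbs, against 3.81, 3.71 and 2.80 CPM in control bulbs (log2 fold change -2.02 ± 0.25, adjusted p = 4.38e-05). The lipase inhibitor angptl4.S fell, with a log2 fold change of -1.80 ± 0.22. Liver-type metabolic genes rose in 24 of 57 and fell in 6 (median 0.55, 16 to 27 rose and 0 to 7 fell over all fits, 17 and 0 with library 2 alone). Serine dehydratase sds, which breaks serine down to pyruvate, was among the 12 most raised genes in both homeologs. For sds.S the levels were 88.5, 87.9 and 83.9 CPM in 2 day bulbs, against 1.54, 1.86 and 10.2 CPM in control bulbs (log2 fold change 4.28 ± 0.65, adjusted p = 0.000366), and for sds.L they were 56.6, 64.2 and 61.1 CPM in 2 day bulbs, against 0.987, 0.867 and 6.51 CPM in control bulbs (log2 fold change 4.48 ± 0.69, adjusted p = 0.000425). Control library 3 lay above the other controls in both. The methionine enzyme mat1a.S rose by 2.35 ± 0.18 and the retinol carrier rbp4.L by 2.48 ± 0.41, while its homeolog rbp4.S, at 229, 251 and 265 CPM in 2 day bulbs, against 234, 213 and 216 CPM in control bulbs, was not called.

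Epithelial genes supplied 5 of the 12 most raised genes with at least 5 CPM as the higher mean, but unevenly by library. Of 67 nasal epithelium and skin genes 31 rose and 4 fell (median 0.85, 9 to 36 rose and 3 to 5 fell over all fits). Only 9 rose with library 2 as the only 2 day bulb (median 0.28). The basal keratin krt15.L was at 8.01, 1.45 and 16.4 CPM in 2 day bulbs, against 0.0676, 0.0591 and 0.0554 CPM in control bulbs (log2 fold change 7.13 ± 0.91, adjusted p = 9.04e-05). The hemidesmosome collagen col17a1.L was at 19.0, 2.86 and 38.2 CPM in 2 day bulbs, against 0.176, 0.335 and 0.249 CPM in control bulbs (log2 fold change 6.27 ± 1.12, adjusted p = 0.00111). The keratin krt12 rose in both homeologs, with krt12.L at 248, 59.8 and 307 CPM in 2 day bulbs, against 3.34, 4.45 and 2.98 CPM in control bulbs (log2 fold change 5.83 ± 0.70, adjusted p = 8.47e-05). In krt12.S the log2 fold change was 5.46 ± 0.70. For krt2l.S the levels were 27.3, 5.85 and 63.3 CPM in 2 day bulbs, against 0.797, 0.542 and 0.457 CPM in control bulbs (log2 fold change 5.76 ± 0.75, adjusted p = 0.000147), and krt2l.L rose by 1.38 ± 0.26. In the ranked keratin and collagen genes library 3 of the 2 day bulbs was highest and library 2 lowest. Library 2 lay above all controls in them, as the ranking required. With library 2 as the only 2 day bulb the log2 fold change of krt15.L was 4.55. The epithelial members that fell were aqp3.L, krt18.S, dsg2.L and cyp2a13.L. Another of the 12 most raised genes, the uromodulin-like umod.2.L, was at 15.5, 12.1 and 43.4 CPM in 2 day bulbs, against 0.973, 0.601 and 0.623 CPM in control bulbs (log2 fold change 5.03 ± 0.96, adjusted p = 0.00164).

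Of 77 matrix and fibroblast genes 17 rose and 20 fell (median 0.06, 8 to 21 rose and 7 to 24 fell over all fits, 8 and 13 with library 2 alone). Without 2 day library 3 the count that rose was 11, and without 2 day library 2 the count that fell was 12. Collagen I chain col1a2.S was at 45.5, 23.4 and 74.7 CPM in 2 day bulbs, against 14.5, 12.2 and 10.9 CPM in control bulbs (log2 fold change 1.94 ± 0.37, adjusted p = 0.00141), while col1a2.L, at 189.5, 93.5 and 335 CPM in 2 day bulbs, against 208, 213 and 173 CPM in control bulbs, was not called. The proteoglycan lumican, lum.L, was at 7.95, 2.05 and 16.9 CPM in 2 day bulbs, against 2.11, 2.06 and 2.81 CPM in control bulbs (log2 fold change 1.96 ± 0.54, adjusted p = 0.0109), and the call ended without library 3 of the 2 day bulbs, as for lum.S. With library 2 as the only 2 day bulb its log2 fold change was -0.17. In col1a2.S, col1a2.L and lum.L library 3 of the 2 day bulbs was highest and library 2 lowest, and the groups overlapped in col1a2.L and lum.L. Collagen III chain col3a1.S fell, to 19.3, 15.5 and 23.9 CPM in 2 day bulbs, against 116, 111 and 94.9 CPM in control bulbs (log2 fold change -2.44 ± 0.16, adjusted p = 7.28e-07). Its homeolog col3a1.L was not called. The smooth muscle actin acta2.S fell, with a log2 fold change of -1.60 ± 0.32. Of 47 cartilage and bone genes 9 rose and 6 fell (median 0.20, 4 to 12 rose and 0 to 6 fell over all fits, 4 and 2 with library 2 alone), with 5 that rose without 2 day library 3. Bone sialoprotein ibsp.L was at 0.182, 2.24 and 3.51 CPM in 2 day bulbs, against 0.0811, 0.00985 and 0.0554 CPM in control bulbs (log2 fold change 5.41 ± 1.02, adjusted p = 0.00111), with library 1 of the 2 day bulbs close to the controls. Of 52 muscle genes 8 rose and 12 fell (median -0.10, 1 to 13 rose and 2 to 12 fell over all fits, 4 and 4 with library 2 alone), with 5 that rose without control library 1 or 3. The slow myosin myh7.L was at 11.8, 11.6 and 9.84 CPM in 2 day bulbs, against 2.50, 2.05 and 1.84 CPM in control bulbs (log2 fold change 2.38 ± 0.14, adjusted p = 4.49e-07).

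Endothelium and pericyte genes fell in 23 of 60 and rose in 4 (median -0.26, 1 to 8 rose and 12 to 29 fell over all fits, 1 and 12 with library 2 alone). The coreceptor eng.S was at 0.447, 0.371 and 0.516 CPM in 2 day bulbs, against 1.84, 1.84 and 2.37 CPM in control bulbs (log2 fold change -2.16 ± 0.21, adjusted p = 9.8e-06). The VEGF receptor flt1.L fell, with a log2 fold change of -1.53 ± 0.33, and the angiopoietin-associated receptor tie1.L rose by 0.91 ± 0.11. The junction protein cldn5.L, a marker of the blood-brain barrier, was at 50.3, 60.5 and 58.7 CPM in 2 day bulbs, against 50.7, 54.9 and 55.2 CPM in control bulbs and was not called (log2 fold change 0.08 ± 0.10, adjusted p = 0.512). Meninges and choroid plexus genes fell in 19 of 50 and rose in 3 (median -0.52, 1 to 5 rose and 12 to 25 fell over all fits, 1 and 12 with library 2 alone). The factor otx2.L, expressed in choroid plexus and midbrain, was at 46.4, 45.3 and 43.8 CPM in 2 day bulbs, against 87.9, 87.5 and 80.3 CPM in control bulbs (log2 fold change -0.91 ± 0.11, adjusted p = 4.69e-05). Of 54 motile cilia genes 24 fell and 5 rose (median -0.33, 2 to 6 rose and 10 to 26 fell over all fits, 2 and 10 with library 2 alone). Their master factor foxj1.L was at 5.33, 5.48 and 5.64 CPM in 2 day bulbs, against 10.9, 12.3 and 10.7 CPM in control bulbs (log2 fold change -1.04 ± 0.17, adjusted p = 0.000326). The axonemal tektin tekt3.L was at 2.26, 2.42 and 1.82 CPM in 2 day bulbs, against 5.41, 5.88 and 4.87 CPM in control bulbs (log2 fold change -1.31 ± 0.18, adjusted p = 0.000101). Red cell genes fell in 18 of 32 and rose in 3 (median -0.77, 1 to 3 rose and 12 to 20 fell over all fits, 1 and 12 with library 2 alone). The anion exchanger slc4a1.S was at 0.964, 0.883 and 1.24 CPM in 2 day bulbs, against 12.6, 11.6 and 8.75 CPM in control bulbs (log2 fold change -3.40 ± 0.27, adjusted p = 2.65e-06). The heme enzyme alas2.S fell, with a log2 fold change of -1.17 ± 0.11, and the globin hbg2.L was at 143, 121 and 140.1 CPM in 2 day bulbs, against 597, 548 and 414 CPM in control bulbs (log2 fold change -1.94 ± 0.67, adjusted p = 0.0353), a call that ended when any of 5 libraries was left out.

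Some of the largest changes concerned mainly 1 homeolog of a pair. Over 9201 pairs tested, 917 rose in both homeologs (9.97%), 1567 fell in both (17%), 262 were called in opposite directions (2.85%), 3387 had 1 homeolog called (36.8%) and 3068 had none (33.3%). The largest rise of all genes named by the rule was the intramembrane protease sppl2b.L, at 314, 373 and 269 CPM in 2 day bulbs, against 0.135, 0.364 and 0.208 CPM in control bulbs (log2 fold change 10.33 ± 0.32, adjusted p = 3.98e-09). Its homeolog sppl2b.S was at 70.2, 71.7 and 66.5 CPM in 2 day bulbs, against 55.2, 55.8 and 58.0 CPM in control bulbs (log2 fold change 0.31 ± 0.07, adjusted p = 0.00461). The change of sppl2b.L was as large at later times, with log2 fold changes against the same controls of 10.33 at 2 days, 11.08 at 1 week and 10.89 at 7 weeks. The phosphoribosyltransferase-like uprt.S was at 6.72, 4.98 and 6.37 CPM in 2 day bulbs, against 0.0406, 0.0493 and 0.886 CPM in control bulbs (log2 fold change 4.30 ± 0.66, adjusted p = 0.000301, or 7.01 without control library 3). Its homeolog uprt.L fell, with a log2 fold change of -0.97 ± 0.10. In the other direction the splicing factor sf1.L was at 0.238, 0.300 and 0.175 CPM in 2 day bulbs, against 5.77, 5.29 and 5.43 CPM in control bulbs (log2 fold change -4.56 ± 0.28, adjusted p = 5.71e-07), and sf1.S, at 112, 98.7 and 99.6 CPM in 2 day bulbs, against 166, 176 and 143 CPM in control bulbs, changed by -0.64 ± 0.18. The inositol phosphate kinase ip6k1.S was at 0.210, 0.212 and 0.269 CPM in 2 day bulbs, against 5.37, 6.26 and 3.74 CPM in control bulbs (log2 fold change -4.45 ± 0.29, adjusted p = 7e-07), and ip6k1.L, at 34.1, 31.9 and 35.2 CPM in 2 day bulbs, against 33.9, 37.2 and 35.9 CPM in control bulbs, was not called. Its log2 fold changes against the same controls were -4.45 at 2 days, -4.10 at 1 week and -4.62 at 7 weeks. With the homeologs summed, uprt fell instead, and the rises of col1a2 and rbp4 were not called. How reads of near-identical homeologs were shared out is not given in the sources used here, so values of single homeologs are uncertain to that extent. The remaining genes of the 12 most lowered were the channel-like tmc8.L, at 0.545, 0.406 and 0.465 CPM in 2 day bulbs, against 6.01, 8.90 and 2.38 CPM in control bulbs (log2 fold change -3.60 ± 0.40, adjusted p = 2.17e-05), and oit3.L. For oit3.L the levels were 0.671, 0.636 and 1.53 CPM in 2 day bulbs, against 12.2, 12.4 and 9.25 CPM in control bulbs (log2 fold change -3.53 ± 0.37, adjusted p = 1.61e-05).

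How far the state at 2 days differed from that at 1 week was tested directly between those groups. Of 31701 genes 4202 were called (13.3%), with 1873 higher (5.91%) and 2329 lower (7.35%) at 1 week than at 2 days. That count rested on the libraries fitted, with 1218 calls when all 39 were fitted together and 10187 with these 6 alone, and between 1652 and 2551 when 1 library was left out. Interferon and antiviral genes were lower at 1 week in 22 of 37 and higher in none. For mx2.L the levels in control, 2 day, 1 week and 7 week bulbs averaged 0.449, 14.0, 2.56 and 0.509 CPM, and the difference of 1 week minus 2 days was -2.43 ± 0.38 on the log2 scale (adjusted p = 0.00203). The debris-related gpnmb.L behaved alike over the first week, with means in the same order of 2.54, 14.2, 3.38 and 7.23 CPM and a difference of -2.06 ± 0.23 on the log2 scale (adjusted p = 0.000237). Among 55 microglia and phagocyte genes 4 were lower at 1 week and 4 were higher, near the shares of all genes. Their median log2 fold change against control was 1.17 at 2 days and 0.89 at 1 week. For c4a.L the means were 1.35, 22.4, 18.7 and 1.23 CPM, with no call between 1 week and 2 days (-0.25 ± 0.32 on the log2 scale, adjusted p = 0.667), and apoe.L, at means of 4.46, 67.8, 52.8 and 72.2 CPM, had none either (-0.36 ± 0.31 on the log2 scale, adjusted p = 0.5). The antiviral rsad2.S, at means of 0.117, 2.17, 2.17 and 1.20 CPM, was not called between these times.

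Of 44 olfactory receptor neuron and axon genes 7 were higher and 7 lower at 1 week than at 2 days. For gng13.L the means in control, 2 day, 1 week and 7 week bulbs were 20.4, 10.01, 18.3 and 18.7 CPM, and 1 week exceeded 2 days by 0.88 ± 0.17 on the log2 scale (adjusted p = 0.00652). For gabrd.L they were 12.0, 3.79, 12.2 and 18.3 CPM, with a difference of 1.70 ± 0.28 on the log2 scale (adjusted p = 0.00248). The factor ebf2.L was higher at 1 week by 0.65 ± 0.11 on the log2 scale (adjusted p = 0.00355). In contrast umodl1.L, already above control at 2 days, was higher still at 1 week, with means of 1.15, 2.50, 4.74 and 8.08 CPM and a difference of 0.93 ± 0.15 on the log2 scale (adjusted p = 0.0021). The genes tbr1.L, eomes.L and calb2.S, above control at 2 days, were each lower at 1 week than at 2 days. The difference was -1.03 ± 0.14 on the log2 scale (adjusted p = 0.00101) for tbr1.L, -1.30 ± 0.12 on the log2 scale (adjusted p = 6.09e-05) for eomes.L and -0.67 ± 0.11 on the log2 scale (adjusted p = 0.00241) for calb2.S. Means in control, 2 day, 1 week and 7 week bulbs were 22.6, 34.9, 17.1 and 9.53 CPM for tbr1.L and 50.2, 75.1, 30.5 and 14.8 CPM for eomes.L, so both lay under control from 1 week on. For calb2.S they were 20.6, 40.0, 25.1 and 17.1 CPM. Part of the lists that fell at 2 days was lower still at 1 week, with 74 of 146 cell cycle genes, 35 of 54 cholesterol synthesis genes and 24 of 70 neurogenesis genes lower at 1 week than at 2 days. For top2a.L the means were 173, 24.9, 3.13 and 1.21 CPM, with a difference of -2.96 ± 0.39 on the log2 scale (adjusted p = 0.000988), and for msmo1.L they were 83.9, 27.0, 4.13 and 5.34 CPM, with -2.69 ± 0.21 on the log2 scale (adjusted p = 2.73e-05). For fabp7.L, at means of 1792, 467, 502 and 562 CPM, and psph.S, at 59.5, 5.97, 5.72 and 3.45 CPM, 1 week was not called different from 2 days.

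**Figure D4:**
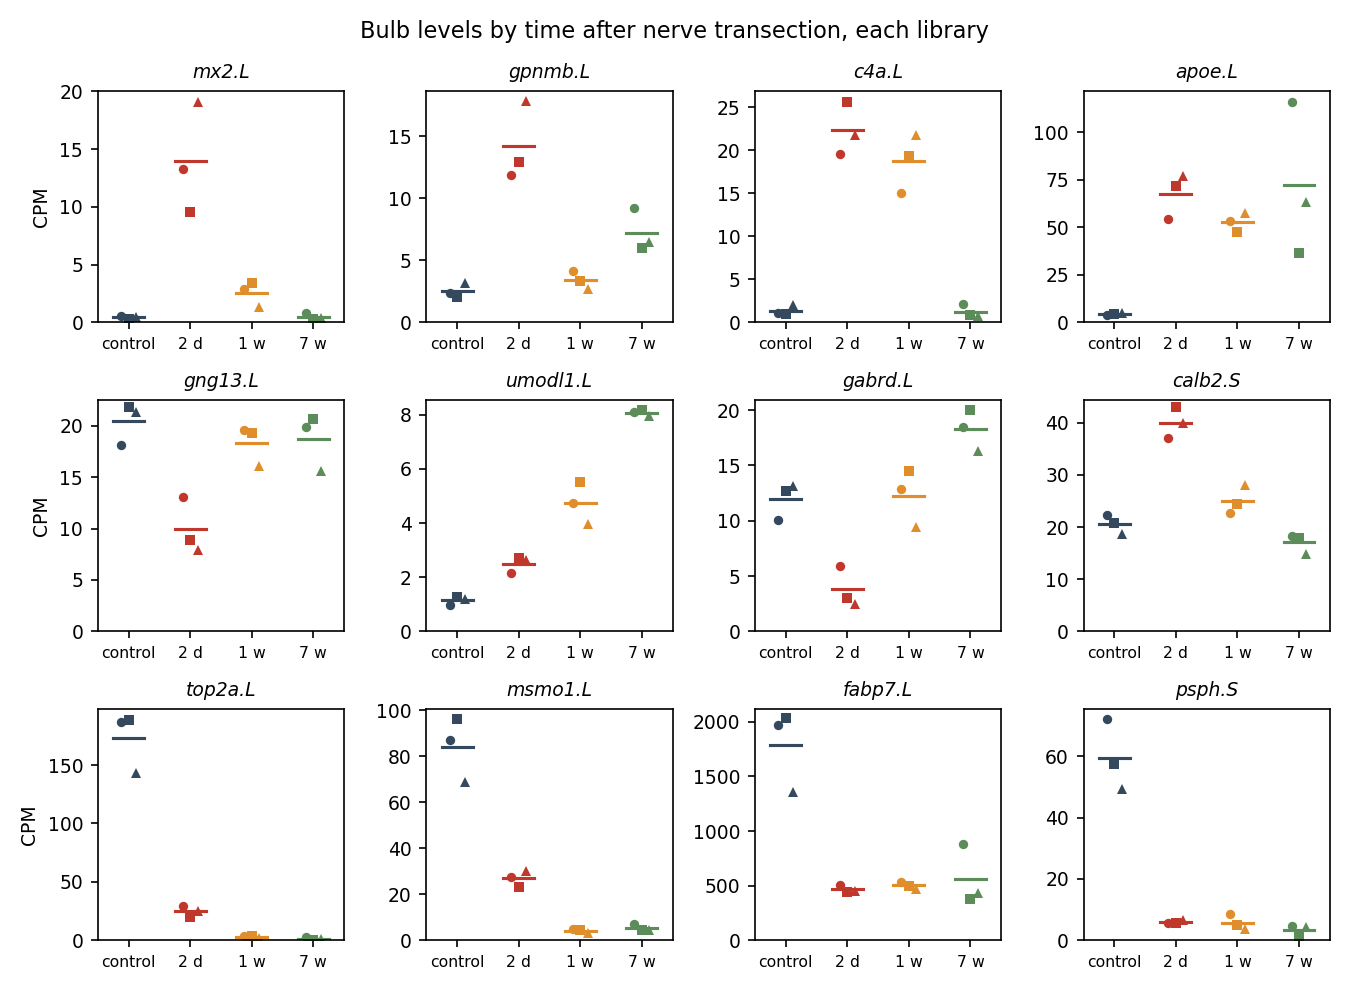
CPM (linear axes from 0) of 12 genes in control bulbs and in bulbs 2 days, 1 week and 7 weeks after transection, with a marker shape for each library and a line at each group mean. The level of mx2.L is high at 2 days and near control at 7 weeks, gng13.L and gabrd.L are low at 2 days alone among these groups, and top2a.L is low from 2 days on.

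The nose holds the cell bodies of the cut axons, and whether the bulb's change at 2 days differed from that of the nose was tested as an interaction over 24 libraries. The log2 fold change in the bulb comes from the fit of the 12 bulb libraries. That in the nose and the difference come from the joint fit of 24, so the difference is not exactly their subtraction. Genes named for a large change in the bulb carry that change into the difference, so a called difference was partly built in for them. Of 34508 genes 5542 were called (16.1%), with a more positive change in the bulb in 3638 (10.5%) and a more negative one in 1904 (5.52%). Interferon and antiviral genes had a more positive change in the bulb in 31 of 37, and their median log2 fold change was 1.55 in the bulb and 0.03 in the nose. For mx2.L the change was 4.98 in the bulb and -0.08 in the nose (difference 5.18, adjusted p = 8.64e-07), and for ifit5.L 4.03 in the bulb and -0.10 in the nose (difference 4.23, adjusted p = 3.81e-05). The cytotoxic and checkpoint genes gzma.L and cd274.L also differed, with 7.52 in the bulb and 0.49 in the nose (difference 7.11, adjusted p = 1e-10) and with 4.22 in the bulb and -0.38 in the nose (difference 4.70, adjusted p = 5.6e-06). Phagocyte genes had a more positive change in the bulb in 21 of 55 and a more negative one in 2, with medians of 1.17 in the bulb and 0.49 in the nose. Within them c1qa.L, of the complement list, and gpnmb.L differed, with 1.66 in the bulb and 0.60 in the nose (difference 1.17, adjusted p = 0.000509) and with 2.50 in the bulb and 1.48 in the nose (difference 1.12, adjusted p = 0.00332). No difference was called for trem2.S (1.75 in the bulb and 1.42 in the nose, difference 0.44, adjusted p = 0.596) or tyrobp.S (2.06 in the bulb and 2.00 in the nose, difference 0.16, adjusted p = 0.852), whose intervals are wide: the standard errors of the difference were 0.47 and 0.40.

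Of the 44 receptor neuron genes 21 had a more positive change in the bulb and none a more negative one, with medians of -0.04 in the bulb and -0.67 in the nose. For umodl1.L the change was 1.12 in the bulb and -2.04 in the nose (difference 3.26, adjusted p = 7.7e-06), for s100z.S -0.32 in the bulb and -2.54 in the nose (difference 2.33, adjusted p = 0.00251), and for gng13.L -1.03 in the bulb and -1.92 in the nose (difference 1.00, adjusted p = 0.0434). The call for gng13.L ended when any of 8 libraries was left out, with another scaling and with other sets of libraries. The growth protein gap43.S differed the other way, with -0.39 in the bulb and 0.53 in the nose (difference -0.81, adjusted p = 0.0124). Cell cycle genes had negative medians in both tissues, -2.03 in the bulb and -1.15 in the nose, and the change was more negative in the bulb in 38 of 146 and more positive in 3. For mcm5.L the change was -3.58 in the bulb and -1.09 in the nose (difference -2.38, adjusted p = 9.14e-05), whereas top2a.L had no called difference (-2.79 in the bulb and -1.61 in the nose, difference -1.07, adjusted p = 0.249). Cholesterol synthesis genes had medians of -0.91 in the bulb and -0.69 in the nose, and no difference was called for msmo1.L (-1.63 in the bulb and -1.55 in the nose, difference 0.03, adjusted p = 0.989). Myelin genes differed in mpz.S, with -3.72 in the bulb and -0.23 in the nose (difference -3.38, adjusted p = 0.00258). Epithelial genes such as krt15.L, a normal component of the nose, had 7.13 in the bulb and -0.29 in the nose (difference 7.54, adjusted p = 6.87e-05).

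**Figure D5:**
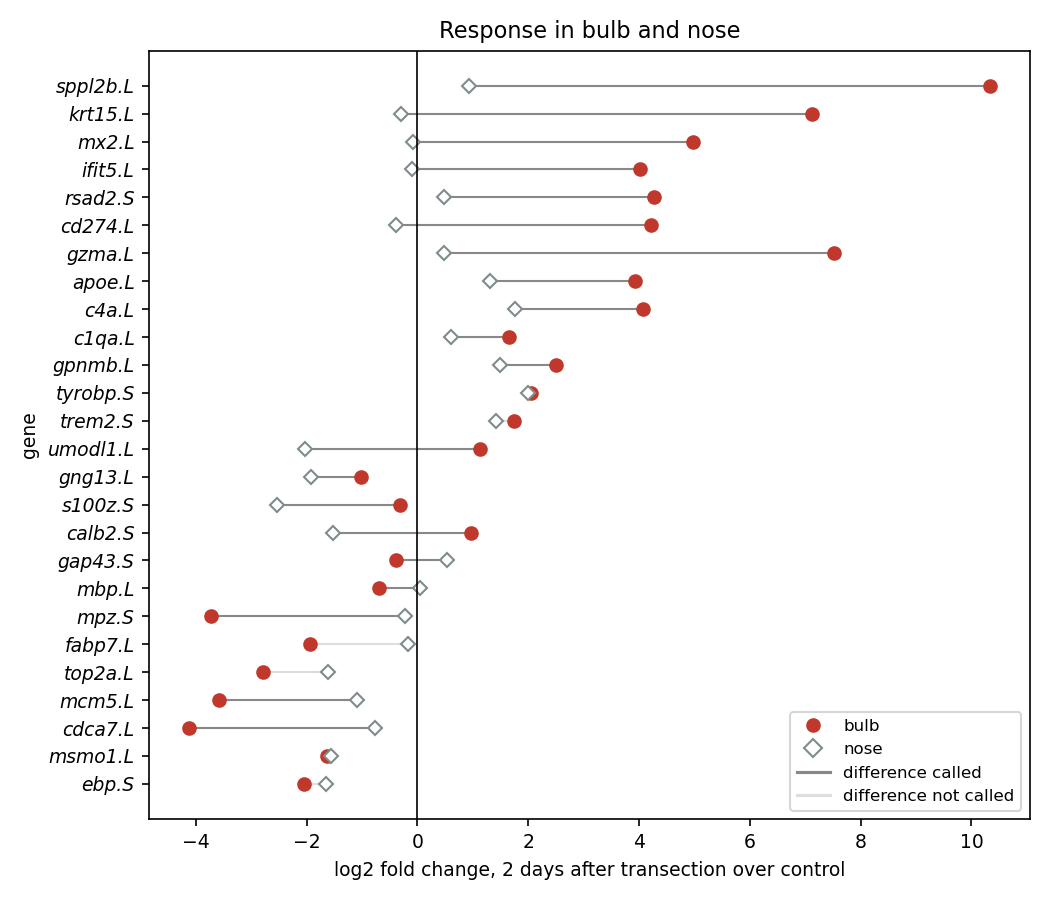
Log2 fold change 2 days after transection over control of 26 genes in the bulb (red circles) and in the nose (open grey diamonds), with a dark line where the difference between the tissues was called and a light line where it was not. The antiviral genes mx2.L, ifit5.L and rsad2.S lie between 4.03 and 4.98 in the bulb and between -0.10 and 0.47 in the nose, and umodl1.L and calb2.S lie above 0 in the bulb and under 0 in the nose.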

How the data were processed

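RNA of whole bulbs and noses was sequenced from total RNA. Per the submitters' processing notes the tools were bcl2fastq 2.17.1.14, STAR 2.5 and featureCounts of Subread 1.5.0. Which genome build and gene annotation they were run with is not given in the sources used here. The deposited tables hold whole-number read counts per gene and, from the authors, TPM values, which were kept for reference only. The counts had 37240 entries, of which 17 repeated ones were dropped, leaving 37223 genes. Columns name a group and not a sample, and all 39 were mapped to groups.

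Counts were tested with the edgeR quasi-likelihood test (edgeR 4.0.16, limma 3.58.1, R 4.3.3), with trimmed mean scaling, Benjamini-Hochberg adjustment over all genes tested and a threshold of 0.05. Genes were kept by filterByExpr with a minimum count of 10 and a minimum total of 15. Bulb comparisons were fitted on 12 bulb libraries of 4 groups, and the comparison with the nose as an interaction on 24 libraries. A standard error is the size of the log2 fold change divided by the square root of its F statistic. Depth in the 6 libraries compared was 53450316 to 100001638 counts, and the precision of low genes is limited by their counts. Each test was also tried on simulated data built from the fit to these counts.

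Genes were named by rule: the 12 highest and 12 lowest called genes with a symbol, 5 CPM or more as the higher mean and no overlap between groups, up to 5 called members of largest change per list at 1 CPM or more, the cell type markers, a set of reporter genes, and the other homeolog of each. Some genes that the rule names are not reported here. The 36 gene lists, the markers and the groups compared were chosen with earlier results of these data known. Alternatives were DESeq2 (1.42.0), its size factors, no filter, other sets of libraries, homeologs summed, a replicate block and leaving out libraries.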

Additional observations from a re-analysis of the deposited data

Results flagged for a closer look

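Listed here are 37 genes whose change 2 days after transection differed between bulb and nose in the interaction test. They come from the highest and lowest called genes, the set of reporter genes and the interferon list only. Other genes named by the rule, such as gzma.L and gpnmb.L, also differed and are not among them. Of all 34508 genes tested, 16.1% were called in that test. The highest and lowest genes were picked by their change in the bulb, which enters the difference. A difference was thus partly built in, and the number listed cannot be read against that share. The values here are the log2 fold change in the bulb minus that in the nose.

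Among immune and phagocyte genes the difference was 5.18 for mx2.L, 4.70 for cd274.L, 4.23 for ifit5.L, 3.90 for rsad2.S, 3.78 for herc6.S, 2.85 for stat2.S, 2.73 for apoe.L, 2.69 for cmpk2.S and 1.17 for c1qa.L, each more positive in the bulb. Epithelial genes differed by 7.54 for krt15.L, 6.50 for krt2l.S, 6.48 for col17a1.L, 5.22 for krt12.L and 5.05 for krt12.S, in bulb libraries whose epithelial marker sums were 35.6, 6.80 and 66.7 CPM, and the part of those transcripts was not tested. Receptor neuron genes differed by 3.26 for umodl1.L, 2.33 for s100z.S, 1.76 for s100z.L, 1.51 for gng13.S and 1.00 for gng13.L. The serine dehydratase homeologs differed by 3.68 for sds.L and 3.52 for sds.S.

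The change was more negative in the bulb for the replication and chromatin genes kiaa0101.L at -2.05, suv39h1.L at -2.18, mcm5.L at -2.38, cdca7.S at -2.66, e2f7.L at -3.02, mcm6.2.S at -3.13 and cdca7.L at -3.25. The same held for mpz.S at -3.38, mbp.L at -0.64, gap43.S at -0.81, tmc8.L at -3.75 and oit3.L at -4.18. Genes with a much larger bulb change than their homeolog were sppl2b.L at 9.52, uprt.S at 3.98, sf1.L at -5.22 and ip6k1.S at -5.30. In the bulb the homeologs sppl2b.S and sf1.S were called in the same direction and uprt.L in the opposite one, while ip6k1.L was not called.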

How the results depend on the processing

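The count of genes called in 2 day bulbs against control bulbs stayed within 1.5 times of 14652 under the alternatives with all 6 libraries, between 10096 with all 39 libraries fitted together and 17978 with only the 6 libraries compared. It was 11361 to 13956 when 1 library was left out. With library 2 as the only 2 day bulb, which assumes that it varies like the other groups, 7153 genes were called, 3398 that rose and 3755 that fell.

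For bulbs at 1 week against 2 days, where 4202 genes were called, 1873 of them higher and 2329 lower, the count was 10187 with only the groups compared (4945 higher, 5242 lower) and 1218 with all 39 libraries (387 higher, 831 lower). Leaving out 1 library gave 1652 to 2551 in all, 615 to 1083 higher and 1037 to 1531 lower. For bulb against nose, with 5542 called, 3638 more positive and 1904 more negative in the bulb, only the groups compared gave 8646 with 3271 more negative, DESeq2 gave 2903 more negative, and all 39 libraries gave 2140 more positive of 4653. The cause of these shifts was not tested.

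Samples with the same replicate number did not deviate together in all 3 numbers of any group pair: the correlations of their deviations from the group means were 0.0152, -0.0552 and -0.163 for 2 day and control bulbs, 0.0679, -0.167 and 0.175 for 1 week and 2 day bulbs, -0.381, -0.239 and 0.238 for 2 day and control noses, and 0.15, -0.0154 and 0.152 for 2 day bulbs and 2 day noses. In none of these were all 3 above 0.1. With 3 libraries a group and no label that ties libraries to animals, this check cannot exclude a pairing. With the replicate number as a block, 13955 genes were called between 2 day and control bulbs, 3481 between 1 week and 2 days and 5324 between bulb and nose.

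Single genes changed direction mainly when homeologs were summed, which gives a homeolog the value of its pair. In 2 day against control bulbs the summed value was -0.66 for uprt.S, -0.31 for ndufv2.S, 1.31 for c3.S, -0.52 for gng8.S, -3.41 for oit3.S, 1.73 for cfb.S, -0.60 for rgs5.L, -1.95 for hbg2.S and -1.37 for cth.S. At 1 week against 2 days it was -0.0875 for sf1.L and -3.34 for hbg2.S. For bulb against nose it was -0.41 for uprt.S, -0.94 for col3a1.L, -4.05 for oit3.S, -1.34 for suv39h1.S, 1.33 for ncf1.L, 1.27 for cfb.S and -0.0429 for hbg2.S. With library 2 as the only 2 day bulb the direction turned for lum.L at -0.17, lum.S at -0.20, tp63.S at -0.10 and dcn.S at -1.19. Of 302 called genes named by the rule and not left out, DESeq2 kept 301, the block 300, all 39 libraries 247 and library 2 alone 227.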
